A study of Mus musculus with 5 samples.

Results

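The cytosolic ribosomal protein genes were examined on 5 whole-genome bead arrays of parvalbumin-positive cells (PV-cells) sorted from mouse cerebral cortex. Members were all probes whose gene symbol begins with Rpl or Rps and a digit, together with Rplp0, Rplp1, Rplp2 and Rpsa, leaving out the Rps6k kinases and pseudogenes. This gave 96 probes for 65 of the 19057 named genes on the array, 38 genes (58 probes) of the large subunit and 27 genes (38 probes) of the small subunit. The symbol rule also took in relatives that are not standard subunits, among them the paralogs Rpl22l1, Rpl3l, Rpl39l, Rpl36al, Rpl7l1 and Rps27l, the Rps19 binding protein gene Rps19bp1 and the retroposed genes Rps23rg1 and Rps4l.

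The study compared mice lacking CLOCK, a transcription factor of the circadian clock, with wild-type mice. The 3 wild-type samples (WT) were labelled PV-GFP; Clock+/+ and the 2 knockout samples (KO) PV-GFP; Clock-/-, so every sample carried the PV-GFP reporter. All animals were C57BL/6J, aged 60 to 64 days, and were taken at zeitgeber time 16 h. The labels name no Cre driver for the Clock deletion. RNA was extracted with Trizol and RNeasy columns and amplified with a NuGEN kit (Ovation PicoSL WTA V2) before labelling. The labels do not say whether samples came from separate animals or pools, so the spread behind each p-value is that of these samples and may be technical.

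Cytosolic ribosomes consist of a large subunit, which forms peptide bonds, and a small subunit, which reads the mRNA. Ribosomal protein mRNAs are abundant in most cells, and many begin with a pyrimidine tract at their 5′ end (the terminal oligopyrimidine, or TOP, motif) through which mTOR signalling controls their translation. In fast-spiking PV interneurons, as in other neurons, ribosomes supply proteins of the cell body, dendrites and synapses.

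The stretches below centre on an annotated start of 7 of the genes that lay farthest from WT in KO replicate 3, and are shown because the TOP motif is read there. Where the table lists several starts, 3 for Rps19 and 2 for Rps21, the first listed is shown and the others are not. Each runs from 15 bases before to 15 bases after the start on the gene's own strand, from RefSeq (GRCm38.p6), with the longest run of C and T of at least 5 bases in capitals.
Rps19, chr7:24884577-24884606, plus strand: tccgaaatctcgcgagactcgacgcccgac
Rps3a1, chr3:86142654-86142683, minus strand: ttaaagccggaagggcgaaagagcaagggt
Rps12, chr10:23787195-23787224, minus strand: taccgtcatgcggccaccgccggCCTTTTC
Rps25, chr9:44407699-44407728, plus strand: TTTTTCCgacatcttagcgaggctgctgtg
Rps21, chr2:180257364-180257393, plus strand: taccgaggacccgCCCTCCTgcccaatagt
Rps2, chr17:24720048-24720077, plus strand: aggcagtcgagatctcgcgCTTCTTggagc
Rpl38, chr11:114668565-114668594, plus strand: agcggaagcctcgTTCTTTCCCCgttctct
The first 4 genes gave higher normalised signals on KO replicate 3 than on any WT array and the last 3 gave lower signals. The runs of C and T are not compared across that division.

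Of the 65 genes, 54 had an entry in the promoter table, with 64 listed promoters. A run of at least 8 C or T bases lay within 20 bases of the start in 39.1% of these promoters, against 16.0% of all 32851 promoters. The share was 41.7% for the large and 35.7% for the small subunit. The canonical E-box CACGTG, the motif bound by CLOCK with its partner BMAL1, was found in 12.5% of the member promoters and 7.15% of all promoters, within windows of 300 bases (250 before the start and 50 after it). The motif reads the same on both strands. It was found in 7 of the 36 large subunit promoters and 1 of the 28 small subunit promoters. Rpl34 and Rpl19 each supplied more than 1 of the 7, so the genes with an E-box are fewer than the promoters. The ETS motif CCGGAAGT, searched as ACTTCCGG on the other strand, was found in 15.6% of member promoters and 3.89% of all. The ETS motif and the E-box cannot overlap. A match is a match of letters and not a measured binding site. The E-boxes of Rps19 and Rpl23, the genes with one that also had a tested probe, are shown with CACGTG in capitals.
Rps19, chr7:24884781-24884810, plus strand: tggagccgcggcCACGTGcgagcggcaggc
Rpl23, chr11:97782425-97782454, minus strand: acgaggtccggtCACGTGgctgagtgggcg
In Rps19 the motif starts 120 bases before another of the 3 listed starts, not the one shown above, and in Rpl23 it starts 3 bases before one.

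Array by array, ribosomal protein probes were above background more often than probes at large, but most gave no signal above background. A probe was called above background at a detection p-value, the deposited comparison with negative-control beads, below 0.05. On the WT arrays 27, 21 and 20 of the 96 member probes passed, and on KO replicates 1 and 3 there were 22 and 24. Of all probes, 8.11%, 6.06% and 5.93% passed on the WT arrays and 5.98% and 4.37% on KO replicates 1 and 3. KO replicate 3 thus had the lowest share of all probes above background but the second highest count of members. At a stricter detection p of 0.01 this order was lost, and KO replicate 3 had the fewest members, 12 against 13 to 20 on the other arrays. It also had the lowest share of all probes there, 1.24% against 1.8% to 3.69%.

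Both subunits had probes above background on every array. Large subunit probes passed 0.05 in 16, 12 and 11 of 58 cases on the WT arrays and 13 on each KO array. Small subunit probes passed in 11, 9 and 9 of 38 cases on the WT arrays, 9 on KO replicate 1 and 11 on KO replicate 3. At 0.01 the large subunit had 14, 9 and 10 probes on the WT arrays, 10 on KO replicate 1 and 5 on KO replicate 3. The small subunit had 6, 8 and 3, then 6 and 7. The genotypes therefore overlapped in these counts, apart from the 5 large subunit probes of KO replicate 3, where the share of all probes was lowest too.

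**Figure D1:**
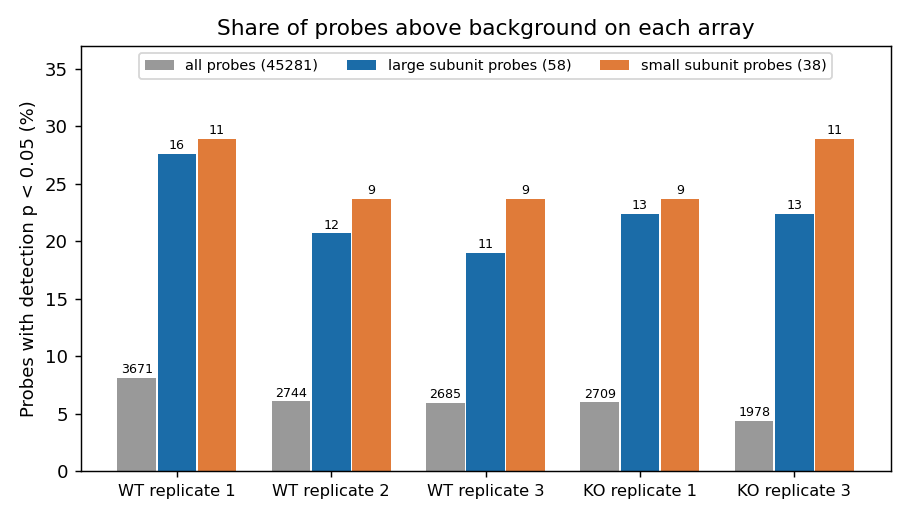
Share of probes above background (detection p below 0.05, percent) on each of the 5 arrays, for large subunit, small subunit and all probes. The members lie above all probes on every array, and KO replicate 3 has the lowest share of all probes (4.37%) without the lowest share of members (25%). At a detection p below 0.01 (not drawn), KO replicate 3 had the lowest share of all probes (1.24%) and of members (12.5%).

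Over the arrays together, 27 member probes (28.1%) for 24 genes passed on at least 2 arrays, compared with 7.39% of all probes, and these 27 were tested. They covered 13 large and 11 small subunit genes. On all 5 arrays 16 member probes (16.7%) passed, against 2.29% of all probes. In contrast, 65 probes passed on no array, and 38 genes had no probe that passed anywhere. The acidic stalk protein gene Rplp0, which helps recruit elongation factors, was one of these, with both probes below background on all 5 arrays. Of the 22 genes with more than 1 probe, 12 had a tested probe, and 11 of those 12 also had a probe below background on every array. Detection was therefore a property of the probe as well as of the gene, and the levels of different probes are not compared below.

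The other ribosome, that of mitochondria, was rarely detected. Of 132 probes for 76 mitochondrial ribosomal protein genes, 8 (6.06%) were tested, a share close to that of all probes. On the WT arrays 8, 8 and 4 passed, and 9 and 3 on KO replicates 1 and 3.

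The arrays themselves differed before any comparison. Raw median intensity ranged from 1121.3 to 1990.7 over the 5 arrays, with WT replicate 1 the dimmest. KO replicate 3 stood apart, with correlations of 0.751 to 0.827 with the other arrays over tested probes, whereas the other 4 correlated at 0.86 to 0.924 among themselves. The 3 probes for Clock were below background on all 5 arrays and did not check the genotype. Of 9 PV and GABA neuron marker genes, 6 were tested, among them Pvalb, Gad1 and Gad2. The summed normalised signal of that list was 5371 to 5871 on the WT arrays, 5409 on KO replicate 1 and 3543 on KO replicate 3. All 9 tested probes of the list averaged lower in KO and KO replicate 3 was the lowest array for 8 of them. In normalised log2 signal Pvalb read 8.88, 9.18 and 8.79 in WT, 8.22 in KO replicate 1 and 7.19 in KO replicate 3, where its detection p was 0.0588. Markers of other cells were mostly below background: 0 of 6 excitatory neuron, 0 of 8 microglial and 0 of 7 endothelial and mural genes were tested. Each summed list takes in all its probes, also those below background. Similar sums in WT and KO therefore do not show similar amounts of those other cells. The summed excitatory list was 885 to 912 in WT and 851 to 902 in KO, the summed microglial list 1134 to 1151 and 1144 to 1154, and the endothelial and mural list 1076 to 1141 and 1113 to 1117. Vip, Aldh1l1, Mbp and Hbb-bt were the tested genes of the lists for other interneurons, astrocytes, oligodendrocytes and blood. These lists were 1334 to 1472, 1463 to 1497, 1751 to 1825 and 1361 to 1450 in WT, and 1296 to 1505, 1494 to 1498, 1768 to 1799 and 1350 to 1361 in KO. The part of these differences in the ribosomal protein values was not tested. In bulk RNA of sorted cells, fewer cells of a type and less RNA per cell cannot be told apart.

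The comparison of KO with WT asked whether loss of CLOCK altered transcript levels in PV-cells. No ribosomal protein probe passed the test. Intensities were background-corrected and quantile-normalised with an offset and put on a log2 scale (neqc), and each of the 3347 tested probes was fitted with limma. After Benjamini-Hochberg adjustment 0 of the 27 member probes passed 0.05, as did 0 of all tested probes (0%). At an unadjusted limma p below 0.05, 0 of 27 members passed, where 5.92% of all tested probes did (101 or 3.02% higher and 97 or 2.9% lower). The smallest member p was 0.0645, for Rpl38, with an adjusted p of 0.801. The 3 WT and 2 KO values did not overlap for 3 of the 27 members, 1 higher and 2 lower in KO, against 21.8% of all tested probes. With 3 against 2 samples, an exact permutation test cannot go below p = 0.1 (two-sided).

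On balance the members were centred near 0. Of the 27, 17 had a higher mean in KO and 10 a lower mean, with a median difference of 0.024 on the log2 scale beside 0.005 for all tested probes. Centring on array medians in place of quantile normalisation turned this to 1 higher and 26 lower, with a median of -0.53 where all tested probes shifted by -0.39. Cyclic loess gave 11 higher and 16 lower, the fit with replicate number as a block 14 and 13, and median centring without background correction 3 and 24. The large subunit had a median of 0.020 (9 higher, 6 lower, range -0.66 to 0.29) and the small subunit 0.235 (8 higher, 4 lower, range -0.45 to 1.00). The small subunit median was -0.021 without KO replicate 3 and 0.052 without WT replicate 1. Both were over the 10 probes that still passed the detection filter, which no longer included Rps19 and Rps3a1. Over all 12 probes the median was 0.066 without background correction and -0.0025 under cyclic loess. Both subunit medians were below 0 when arrays were centred on their medians.

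**Figure D2:**
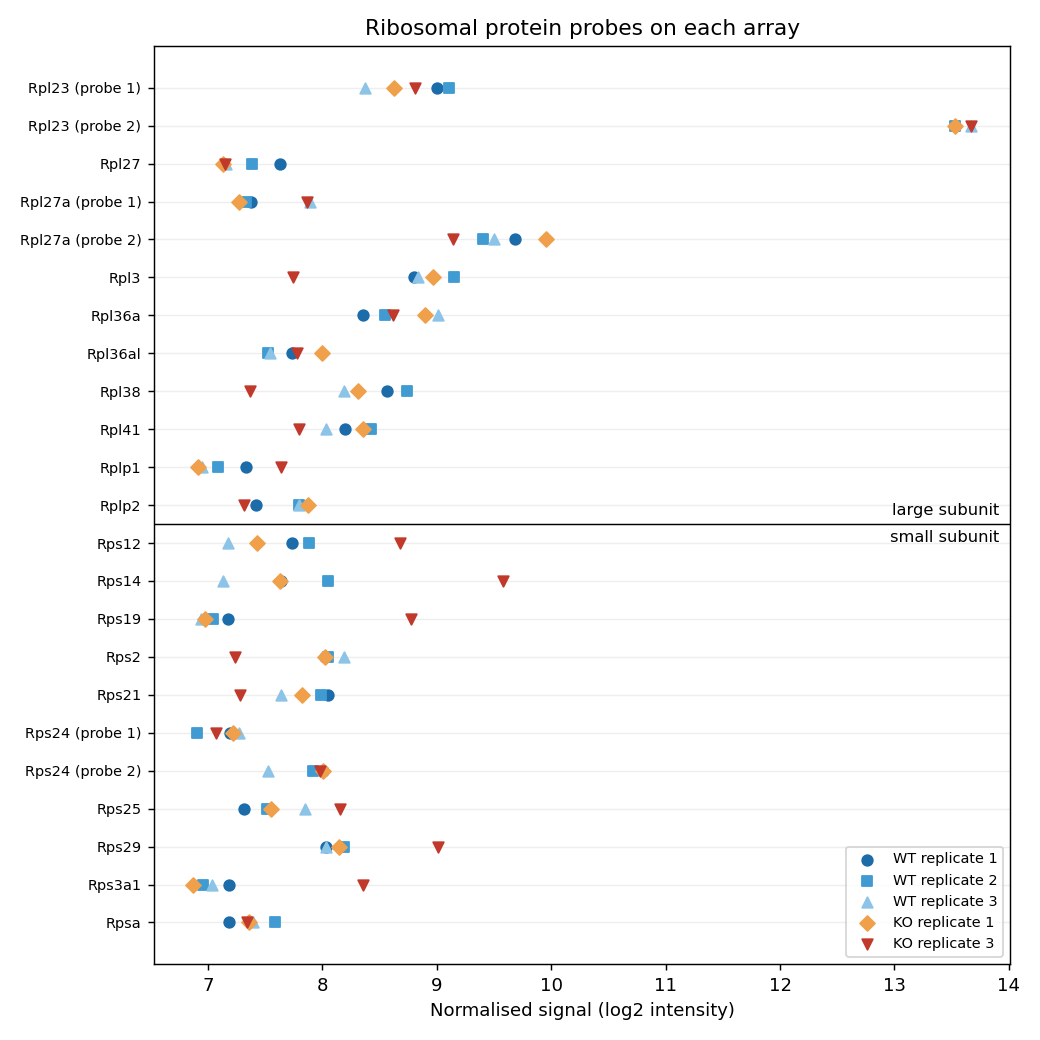
Normalised log2 signal of 23 ribosomal protein probes described in the text on the 3 WT and 2 KO arrays, with 1 point per array. Most probes have WT and KO points intermingled, and KO replicate 3 lies to the right of the others for Rps14, Rps19, Rps3a1 and Rps12 and to the left for Rpl3 and Rpl38 under quantile normalisation; centring on array medians after background correction moves the first 4 below the WT mean.

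Among core large subunit proteins, 2 probes gave values well below the others on KO replicate 3. Rpl3, which lies close to the peptidyl transferase centre, read 8.80, 9.15 and 8.83 in WT, 8.97 in KO replicate 1 and 7.74 in KO replicate 3. The KO minus WT difference was -0.57 on the log2 scale (SE 0.34, limma adjusted p = 0.801). KO replicate 1 lay inside the WT range, and without KO replicate 3 the difference was 0.04. Rpl38, known in mice for selective translation of Hox mRNAs, read 8.56, 8.74 and 8.19 in WT, 8.31 in KO replicate 1 and 7.37 in KO replicate 3. Its difference was -0.66 (SE 0.30, limma adjusted p = 0.801). Again KO replicate 1 was within WT and KO replicate 3 below it. Without KO replicate 3 it was -0.20.

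Rpl23, Rpl27a, Rpl36a and Rpl41, detected on all 5 arrays, had differences smaller than their standard errors. Rpl23, at the interface of the subunits, had 2 tested probes. The brighter read 17364.3, 17368.2 and 18208.9 in raw intensity in WT, 17389.7 in KO replicate 1 and 15489.2 in KO replicate 3. Its raw intensity ranked 2 or 3 among all probes on every array, so that quantile normalisation left it only the log2 values 13.53 and 13.67 and its difference of 0.02 carries little information. The other probe read 9.002, 9.10 and 8.38 in WT and 8.62 and 8.81 in KO, both within the WT range. Rpl27a, likewise with 2 probes, differed by 0.04 (SE 0.26) and 0.02 (SE 0.25). Its brighter probe read 9.68, 9.41 and 9.50 in WT, then 9.95 in KO replicate 1 and 9.14 in KO replicate 3, so the KO arrays lay on opposite sides of WT. The X-linked Rpl36a differed by 0.12 (SE 0.23) and the very small, basic Rpl41 by -0.14 (SE 0.22).

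The non-overlapping large subunit genes were Rpl36al and Rpl27. Rpl36al, a paralog of Rpl36a, read 7.74, 7.53 and 7.54 in WT and 7.997 and 7.78 in KO. Both KO values exceeded every WT value, by a mean of 0.29 (SE 0.17, limma adjusted p = 0.801), and the sign turned under each form of median centring and under cyclic loess after background correction. Rpl27 read 7.63, 7.39 and 7.16 in WT and 7.13 and 7.15 in KO, where it was not above background on either array. Its difference was -0.25 (SE 0.19, limma adjusted p = 0.801), and the bound on the difference of the means was 1.13-fold lower in KO. Only 2 of the 3 WT arrays were above background. WT replicate 3, which was not, read close to both KO values, so a lower level in KO is not established.

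Of the stalk proteins, Rplp1 and Rplp2 were measured by 1 tested probe each. Rplp1 was above background on WT replicate 1 and KO replicate 3 alone. It read 7.33, 7.09 and 6.95 in WT, 6.91 in KO replicate 1 and 7.64 in KO replicate 3, so that WT lay between the KO arrays. Rplp2 read 7.42, 7.79 and 7.80 in WT and 7.87 and 7.31 in KO, the other way round. The differences were 0.15 (SE 0.25) and -0.08 (SE 0.23).

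The small subunit held the values that stood farthest above WT, all on KO replicate 3. Rps14, lost in a human myelodysplastic syndrome with a chromosome deletion, read 7.64, 8.05 and 7.13 in WT, 7.63 in KO replicate 1 and 9.58 in KO replicate 3. The KO mean was 1.00 higher (SE 0.54, limma adjusted p = 0.801), but -0.48 with arrays centred on their medians. Only KO replicate 3 exceeded WT, and without it the difference was 0.03. Rps19, the gene first tied to Diamond-Blackfan anaemia in humans, read 7.17, 7.05 and 6.94 in WT, 6.98 in KO replicate 1 and 8.77 in KO replicate 3. Its difference was 0.82 (SE 0.46, limma adjusted p = 0.801), and -0.22 with that centring. It was above background on WT replicate 1 and KO replicate 3 alone. Leaving out KO replicate 1 gave 1.88, but this sets 1 KO sample against 3 WT and takes its spread to be that of WT.

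Further small subunit genes showed the same arrangement of arrays. Rps3a1, which also binds initiation factors, read 7.18, 6.96 and 7.03 in WT, 6.87 in KO replicate 1 and 8.36 in KO replicate 3. Like Rps19, it was above background on WT replicate 1 and KO replicate 3 alone. Rps12 read 7.74, 7.88 and 7.18 in WT, then 7.43 and 8.68. Rps29 read 8.03, 8.19 and 8.03 in WT, then 8.14 and 9.01. In each of these, KO replicate 1 was below or within WT and KO replicate 3 above it, with differences of 0.55 (SE 0.39), 0.46 (SE 0.38) and 0.49 (SE 0.26). Centring on array medians turned them to -0.29, -0.68 and -0.84. Rps25, needed for initiation at several viral internal ribosome entry sites, read 7.32, 7.52 and 7.85 in WT, 7.55 in KO replicate 1 and 8.16 in KO replicate 3. Its difference was 0.29 (SE 0.25), with median centring it was -0.43, and without KO replicate 3 it was -0.01.

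By contrast Rps2 and Rps21 had their lowest normalised signal on KO replicate 3. Rps2, at the mRNA entry channel, read 8.03, 8.05 and 8.19 in WT, 8.02 in KO replicate 1 and 7.24 in KO replicate 3. Both KO values were below WT, KO replicate 1 by less than 0.01 from the lowest WT array, with a difference of -0.45 (SE 0.24, limma adjusted p = 0.801). Rps21 read 8.05, 7.99 and 7.64 in WT, then 7.82 and 7.28, a difference of -0.34 (SE 0.22). Along with Rpl27 and Rpl38, these genes kept a lower KO mean under every alternative tried and with every sample left out that could be computed. Median centring gave 26 of the 27 members a lower KO mean, so a lower sign there says little about these genes. Rpl27 was not tested without WT replicate 1 or WT replicate 2. Without KO replicate 3, Rps2 and Rps21 differed by only -0.06 and -0.07.

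Rpsa and Rps24 differed by less than their standard errors. Rpsa, also known as the laminin receptor precursor, read 7.18, 7.59 and 7.39 in WT and 7.36 and 7.34 in KO, inside the WT range, and its second probe was below background on all 5 arrays. The probes for Rps24, whose transcript is alternatively spliced, differed by 0.02 (SE 0.18) and 0.18 (SE 0.19). Rps10 did not exceed background in KO and had no bound above 1. Each other tested member, Rpl28, Rpl30 and Rpl37, differed by 0.02 to 0.06.

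Setting each KO array against the WT mean separated the KO samples from each other. On KO replicate 1 none of the 96 member probes lay more than 0.5 on the log2 scale from the WT mean. Of all tested probes 6.51% did (4.3% above and 2.21% below), and of all 45281 probes 0.329% lay above and 0.163% below. On KO replicate 3, 7 of the 27 tested members lay above by more than 0.5 and 4 below, where 8.52% and 12% of all tested probes did. Of the 12 small subunit probes 6 were above and 2 below, and of the 15 large subunit probes 1 was above and 2 below. Among those above, Rps19, Rps3a1 and Rplp1 passed the detection filter only through WT replicate 1 and KO replicate 3. The array on which they were high thus helped to bring them into these counts. KO replicate 3 was the highest of the 5 arrays for 7 of the 12 small subunit probes and for 1 of 15 large subunit probes, compared with 23.8% of all tested probes. It was the lowest for 2 small and 5 large subunit probes, against 29% of all. These counts depended on the normalisation. With background correction and median centring, KO replicate 3 was highest for 0 and lowest for 9 of the 12 small subunit probes, and lowest for 98.1% of all tested probes. With background correction and cyclic loess it was highest for 3 and lowest for 1 of the 12, against 3.7% and 6.54% of all. Tested members more than 0.5 above the WT mean numbered 7 under quantile normalisation, 6 in the authors' processed values and 2 without background correction. They numbered 1 under cyclic loess, the brighter Rpl23 probe whose value there is not interpretable, and 0 under median centring. Of all 3347 tested probes 285, 428, 29, 71 and 0 lay above, in that order. The median deviation of tested probes from the WT mean on KO replicate 3 was 0.38 for the small and -0.042 for the large subunit, and on KO replicate 1 it was -0.044 and 0.083. The difference between subunits was not tested, since it appears on a single array.

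**Figure D3:**
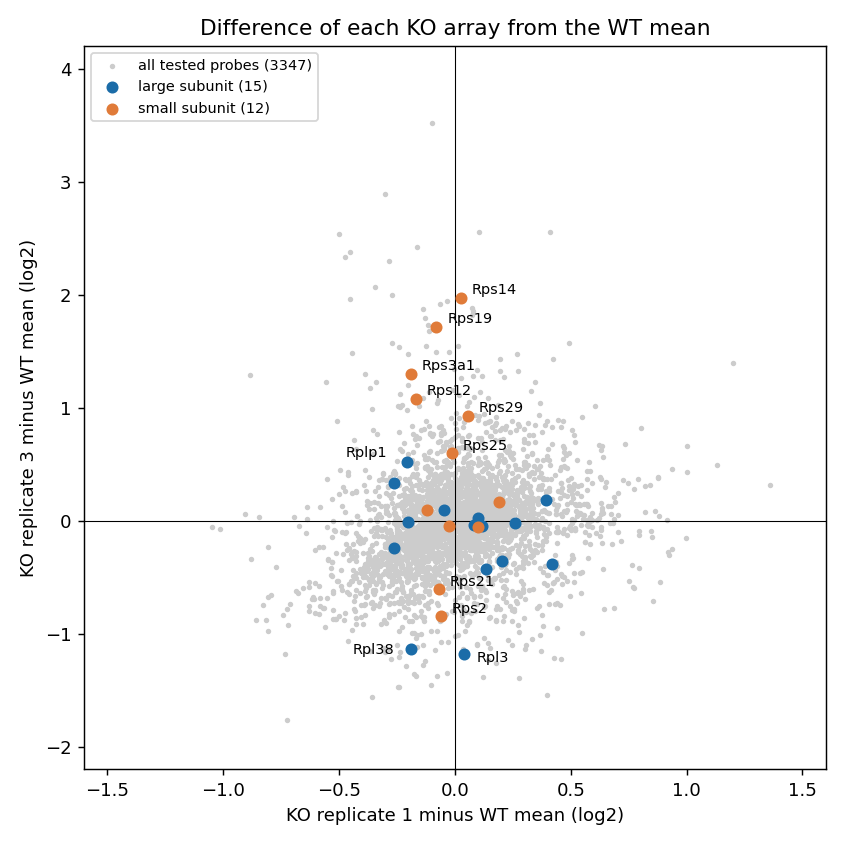
Difference of KO replicate 1 (horizontal axis) and KO replicate 3 (vertical axis) from the WT mean in log2 units, for large subunit, small subunit and all 3347 tested probes. Members lie within 0.5 of 0 on the horizontal axis and range from -1.18 (Rpl3) to 1.97 (Rps14) on the vertical axis under quantile normalisation; centring on array medians after background correction puts Rps14 at -0.49.

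Without the detection filter the counts grew by probes that were below background in WT. Of the 96 members, 11 lay more than 0.5 above the WT mean on that array (0.731% of all probes did) and 4 below (0.899%). Besides the 7 tested probes these were Rps23rg1, Rpl35 and the second Rps12 probe, above background on KO replicate 3 alone, and Rpl26, above background on no array, so the size of their deviations was not measured. Rpl39 was above background on WT replicate 1 alone.

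The raw intensities bore on these deviations without normalisation. Rps14 read 2234.9, 3346.2 and 3109.7 in WT, 3355.5 in KO replicate 1 and 4242.7 in KO replicate 3. Rps19 read 1798.6, 2550.1 and 2795.5 in WT, then 2732.1 and 3538.2. Rps3a1 read 1808.7, 2404.7 and 2957.1, then 2543.4 and 3280.1. KO replicate 3 was the brightest array for these 3 genes although its median over all probes, 1871.3, lay below those of WT replicate 3 and KO replicate 1. The same held for the tested probes of Rps12, Rps29 and Rplp1, but not for Rps25, which was brightest on WT replicate 3.

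The size of the deviations depended on both background correction and normalisation. Without it, under quantile normalisation, Rps14 lay 0.65, Rps19 0.61 and Rps3a1 0.47 above the WT mean on KO replicate 3, and Rpl3 lay at -0.36 and Rpl38 at -0.33. In the processed values deposited by the authors they lay at 1.31, 1.55, 1.27, -0.73 and -0.77. With background correction and centring on array medians, Rps14, Rps19 and Rps3a1 turned to -0.49, -0.18 and -0.25, and Rpl3 and Rpl38 were at -1.97 and -1.64, while the median of all tested probes on that array was -0.54. With background correction and cyclic loess the 5 genes lay at 0.39, 0.23, 0.13, -0.17 and -0.23, and KO replicate 3 was no longer the extreme array for Rps3a1, Rpl3 or Rpl38. Background correction left KO replicate 3 with a narrower spread before normalisation, its 99th percentile being 6.08 on a median of 5.78 against 9.64 on 6.76 for WT replicate 1.

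**Figure D4:**
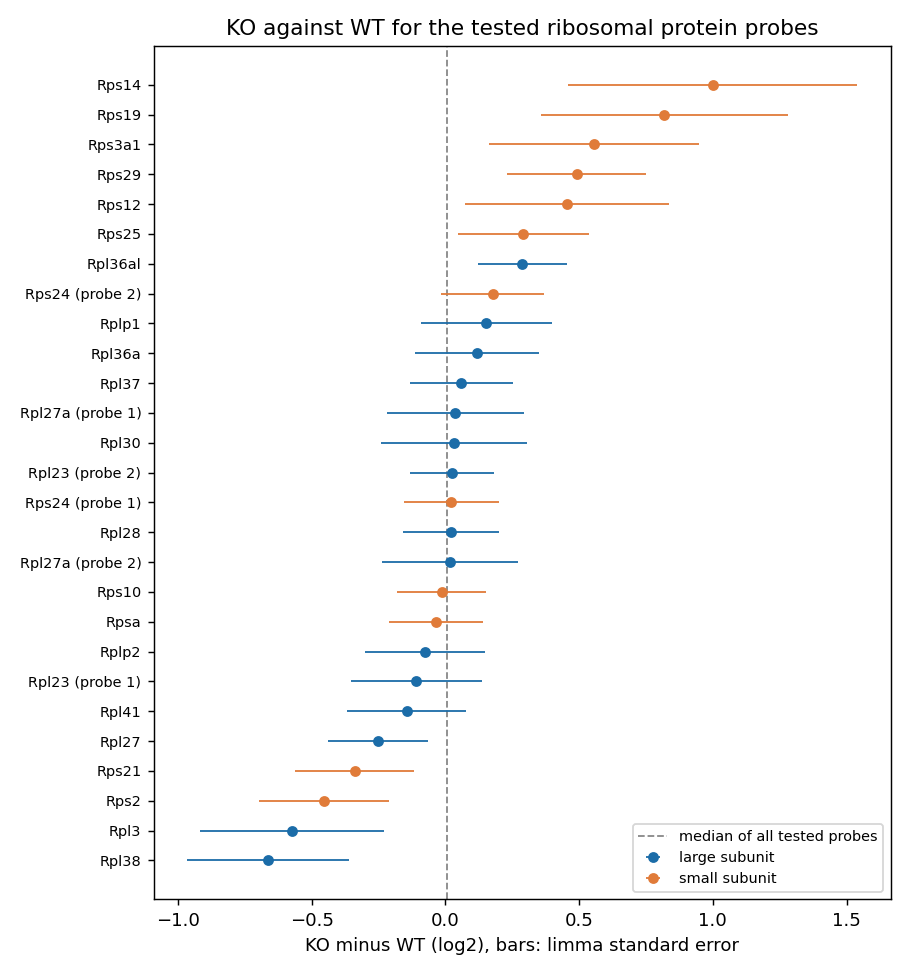
KO minus WT log2 difference of each tested ribosomal protein probe with its standard error from limma, by subunit. Small subunit probes spread from -0.45 (Rps2) to 1.00 (Rps14) and large subunit probes from -0.66 (Rpl38) to 0.29 (Rpl36al), and none passed the adjusted threshold; centring on array medians gave 26 of the 27 a lower KO mean.

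Genes of related pathways gave few tested probes and no call. Of 51 genes for ribosome assembly and rRNA synthesis 2 were tested. Npm1, a nucleolar chaperone of ribosome assembly, read 7.38, 7.14 and 6.99 in WT, 6.87 in KO replicate 1 and 10.06 in KO replicate 3. KO replicate 1 thus lay below WT and KO replicate 3 above it. Npm1 was above background on WT replicate 1 and KO replicate 3 alone. Its difference was 1.30 (SE 0.79, limma adjusted p = 0.801). Nolc1, another nucleolar protein gene, differed by -0.12. Of 16 other genes whose mRNAs carry a TOP motif, 5 were tested with 7 probes, 5 higher and 2 lower. The elongation factor gene Eef1g read 8.13, 8.53 and 8.42 in WT, then 8.37 and 9.90 in KO replicates 1 and 3, a difference of 0.78 (SE 0.41). Eef1a1, which delivers aminoacyl-tRNA, differed by 0.65 and 0.40 on 2 probes, also through KO replicate 3. Other genes of that list lay below the WT mean on that array: Eif3f by -0.85 and -0.11 on its 2 probes, Naca by -0.75 and Hnrnpa1 by -0.45. KO replicate 3 was the highest array for 3 and the lowest for 3 of the 7 probes.

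Of 13 mTOR pathway genes 4 were tested, 1 higher and 3 lower. Larp1, which binds TOP mRNAs, read 7.61, 7.21 and 7.10 in WT and 7.11 and 6.92 in KO. The groups overlapped, and the probe was not above background on WT replicate 3 or on either KO array. The bound on the difference of the means was 1.07-fold lower in KO, with a limma adjusted p of 0.801. Rptor, a subunit of mTOR complex 1, differed by -0.28 (SE 0.27). Of the 8 tested mitochondrial ribosomal protein probes 5 were higher and 3 lower. Mrps12 read 7.20, 7.63 and 7.59 in WT and 8.24 and 7.76 in KO, both above WT, with a difference of 0.53 (SE 0.22, limma adjusted p = 0.801). Here KO replicate 1, not KO replicate 3, was the highest array. Mrpl1 differed by 0.40 (SE 0.23).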

How the data were processed

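Expression was measured on 5 single-colour Illumina arrays (3 WT, 2 KO). The deposited table listed 45281 probes and, per the file headers, paired every array's intensity with its detection p-value. GenomeStudio is named in the submitters' processing notes. The authors also deposited processed values on a linear intensity scale, used as an alternative after a floor of 1 and log2. Probes were named from the platform annotation: 34885 had 1 symbol, 18 several and 10378 none, and all 96 member probes matched the current gene table under the same symbol.

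Raw intensities were normalised with neqc (normexp from detection p-values, offset 16, quantile, log2) in limma 3.58.1 under R 4.3.3. Probes with detection p below 0.05 on at least 2 arrays were tested with lmFit and eBayes, and p-values adjusted over 3347 probes by the Benjamini-Hochberg method. The fit was tested on simulated data with normal noise at WT variances and equal effects on both KO arrays. That setting holds no array that stands apart as KO replicate 3 did. SEs come from limma. A bound for a probe below background throughout a group used, per array, the higher of its own signal and the lowest signal above background. The number of arrays limits the precision.

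Members, lists and markers were chosen with earlier results of these data known. Named genes were those with a probe above background on all 5 arrays, the 5 smallest limma p-values in each direction, Rplp0, Rplp1, Rplp2 and Rpsa, all tested probes of genes with several, and the 2 smallest p-values in each related list. Probes named for KO replicate 3 alone, the rest of the tested members and the sequences were chosen after their values were seen. Sequences are from the RefSeq promoter table (GRCm38.p6), searched with Python 3.11.15. Probe sequences were not used here, so signal shared with ribosomal protein pseudogenes or near-copies was not checked. Alternatives were median centring, cyclic loess, no background correction, the authors' values, other detection filters, other variance models, a replicate block and leaving out each sample. Replicate numbers 1 and 3 are shared by both genotypes, but no label pairs them.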

Additional observations from a re-analysis of the deposited data

How the results depend on the processing

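The count of adjusted calls stayed at 0 under every alternative except without KO replicate 1. That fit sets 1 KO sample against 3 WT and has no spread within KO, so its calls are not read here. Rps19 differed by 1.88 in it, on a probe above background only on WT replicate 1 and KO replicate 3. With other samples left out the counts were 0. Medians for all members, large and small subunit moved to -0.53, -0.65 and -0.46 under median scaling, and to -0.11, -0.21 and -0.078 under median scaling without background correction, which was chosen after seeing the data, as was cyclic loess without it. The median of all tested probes shifted by -0.39 and -0.10. With samples left out these medians ranged from -0.01 to 0.05, -0.04 to 0.10 and -0.02 to 0.43. The detection filter was reapplied each time, so the probes behind these medians differed. Of the 23 named probes, Rpl27, Rpl38, Rps2 and Rps21 kept 1 sign throughout where tested. That sign was lower in KO, the direction into which median scaling moved most members.

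Under median scaling the sign turned for Rpl27a probe 1 (-0.51), Rpl27a probe 2 (-1.34), Rpl36a (-1.04), Rpl36al (-0.65), Rplp1 (-0.42), Rps12 (-0.68), Rps14 (-0.48), Rps19 (-0.22), Rps24 probe 1 (-0.28), Rps24 probe 2 (-0.85), Rps25 (-0.43), Rps29 (-0.84) and Rps3a1 (-0.29). Under cyclic loess the sign turned for Rpl27a probe 1 (-0.043), Rpl36al (-0.0018), Rplp1 (-0.10), Rplp2 (0.0059), Rps12 (-0.044), Rps24 probe 2 (-0.077), Rps3a1 (-0.022) and Rpsa (0.014). In the authors' processed values the sign turned for Rpl27a probe 2 (-0.0083). With the replicate block the sign turned for Rpl23 probe 1 (0.029), Rpl27a probe 1 (-0.065), Rpl27a probe 2 (-0.046), Rps24 probe 1 (-0.086) and Rpsa (0.064). Under median scaling without background correction the sign turned for Rpl23 probe 2 (-0.40), Rpl27a probe 1 (-0.12), Rpl27a probe 2 (-0.32), Rpl36a (-0.21), Rpl36al (-0.11), Rplp1 (-0.075), Rps12 (-0.0699), Rps24 probe 1 (-0.045), Rps24 probe 2 (-0.17), Rps25 (-0.061) and Rps29 (-0.09). Under cyclic loess without it the sign turned for Rps24 probe 2 (-0.016) and Rpsa (0.0091). With samples left out the sign turned for Rpl27a probe 1 (-0.28 to 0.38), Rpl36a (-0.042 to 0.32), Rpl23 probe 1 (-0.35 to 0.0396), Rpl27a probe 2 (-0.38 to 0.43), Rps24 probe 1 (-0.091 to 0.11), Rpsa (-0.051 to 0.069), Rpl23 probe 2 (-0.048 to 0.0898), Rpl3 (-1.27 to 0.038), Rpl41 (-0.47 to 0.14), Rplp2 (-0.40 to 0.22), Rps12 (-0.18 to 1.18) and Rps25 (-0.013 to 0.67). The replicate block gave 0 calls and medians of 0.03, -0.04 and 0.25. Deviations of same-numbered samples correlated at 0.202 and 0.129 over 2 pairs, too few to treat the numbers as pairs. Unadjusted calls (101 higher, 97 lower) became 0 and 23 under median scaling, 3 and 3 under cyclic loess, and 0 and 358 under median scaling without background correction. Cyclic loess after background correction spread the brighter Rpl23 probe from 3.71 to 19.58 over arrays, so its value there is not interpretable. At detection p below 0.01 on at least 2 arrays, 18 members passed in place of 27. Most members were near background, which limits the differences that could be seen. The causes of these changes were not tested.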
